A study of Rattus norvegicus with 6 samples.

Results

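Small leucine-rich proteoglycans are secreted matrix proteins made of a run of leucine-rich repeats, most of which carry chondroitin, dermatan or keratan sulfate chains. They bind fibrillar collagens and set how the fibrils grow, and several also hold growth factors such as TGF-beta or are read by Toll-like receptors. In bone marrow stroma and bone they are known as regulators of collagen matrix and of bone-forming cells. 9 genes of the family were followed here, named as Dcn, Bgn, Lum, Fmod, Ogn, Omd, Prelp, Aspn and Podn, and all 9 had a row among the 21026 gene symbols of the deposited count table. They fall into the family's structural classes, with Dcn, Bgn and Aspn in class I, Fmod, Lum, Prelp and Omd in class II, Ogn in class III and Podn in class V.

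The cells were mesenchymal stem cells of rat bone marrow (plastic-adherent stroma that can form bone, cartilage and fat), from aged and from young Rattus norvegicus, with 3 libraries of polyadenylated RNA in each group. The labels used here give no age, strain, sex, passage or culture condition, and the number of animals behind the libraries is not stated, so the p-values measure only the spread between these libraries. Each library pools the RNA of many cells, so fewer cells of a type and less RNA per cell cannot be told apart. The series title places the comparison in a study of mitophagy, endogenous double-stranded DNA and bone healing in old age.

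Total counts were 34638874 to 38921547 in aged and 40180480 to 42479626 in young libraries. Of 10 stromal genes listed, Thy1, Cd44, Pdgfra, Pdgfrb and Prrx1 each had 10573 counts or more in every library. Nt5e had 1820 to 2082 counts in aged and 366 to 408 in young libraries, and Vcam1 had 23 to 37 in aged and 5 to 25 in young libraries. The pan-leukocyte gene Ptprc had 1 count in 1 aged library and 0 in the others, the myeloid genes Csf1r, Lyz2 and Cd14 were detected in every library, and the endothelial genes Cdh5 and Emcn had at most 1 count. The marrow stromal receptor gene Lepr reached only 14 to 28 counts in aged and 1 to 10 in young libraries. Mitochondria-encoded transcripts took 4.25% to 4.46% of the counts in aged and 1.07% to 1.36% in young libraries. Young replicate 2 differed more from the other young libraries than those did from each other, with a chi-square per degree of freedom of 9.19 and 11.2 against 3.64.

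For 6 of the 9 genes RefSeq (assembly GRCr8) gave a promoter window of 300 bases, 250 before and 50 after the start site, and Dcn, Bgn and Prelp had none. The windows of the chromosome 17 neighbours Ogn, Omd and Aspn are shown because these adjacent genes differed most in their change, and that of Lum as an example of a gene that fell. Each is written 5′ to 3′ along the gene's strand, and capitals mark any match to 7 motifs searched on both strands. The motifs were TATAAA (the core promoter element of that name), CCAAT (bound by NF-Y), GGGCGG (bound by Sp1 factors), TGANTCA (an AP-1 site), TGTGGT (the core of a RUNX site), GGAATG (the core of a TEAD site) and TATTTATA (a motif like those bound by MEF2 factors). The window of Ogn is chr17:15258946-15259245, minus strand. The window of Omd is chr17:15274821-15275120, minus strand. The window of Aspn is chr17:15310420-15310719, minus strand. The window of Lum is chr7:34245456-34245755, plus strand.
Ogn: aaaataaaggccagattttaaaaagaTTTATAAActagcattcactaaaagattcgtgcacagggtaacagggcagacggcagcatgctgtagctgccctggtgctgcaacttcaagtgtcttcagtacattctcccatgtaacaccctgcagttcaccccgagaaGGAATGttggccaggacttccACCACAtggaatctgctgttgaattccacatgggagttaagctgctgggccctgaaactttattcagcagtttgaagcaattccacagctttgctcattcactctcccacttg
Omd: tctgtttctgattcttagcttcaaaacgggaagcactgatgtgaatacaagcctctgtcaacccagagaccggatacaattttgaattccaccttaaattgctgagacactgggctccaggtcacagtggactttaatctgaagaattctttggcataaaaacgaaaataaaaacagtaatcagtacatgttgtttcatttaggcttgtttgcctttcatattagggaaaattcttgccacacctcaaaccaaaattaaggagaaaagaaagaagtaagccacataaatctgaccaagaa
Aspn: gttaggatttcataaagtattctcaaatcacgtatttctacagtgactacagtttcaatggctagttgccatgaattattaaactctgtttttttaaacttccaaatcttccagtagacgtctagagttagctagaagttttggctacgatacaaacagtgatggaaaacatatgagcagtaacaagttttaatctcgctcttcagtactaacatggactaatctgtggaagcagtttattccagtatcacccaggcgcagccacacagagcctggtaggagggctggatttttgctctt
Lum: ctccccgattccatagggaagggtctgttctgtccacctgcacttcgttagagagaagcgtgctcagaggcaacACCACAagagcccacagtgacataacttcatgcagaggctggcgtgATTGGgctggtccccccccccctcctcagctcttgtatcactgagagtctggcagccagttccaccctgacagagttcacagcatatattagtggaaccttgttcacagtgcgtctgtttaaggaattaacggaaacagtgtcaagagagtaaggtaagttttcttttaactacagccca
The Ogn window held overlapping TATAAA matches on both strands (first bases 27 and 29, at -224 and -222 from the start site). It also held a GGAATG at base 167 and the reverse complement of TGTGGT at base 188. The Lum window held the reverse complement of TGTGGT at base 75 and of CCAAT at base 121. The Omd and Aspn windows held none of the 7. TATAAA occurred in 14.3%, CCAAT in 37.7%, GGGCGG in 34.9%, TGANTCA in 7.33%, TGTGGT in 16.9%, GGAATG in 13.9% and TATTTATA in 1.85% of 27457 RefSeq windows of that length. The matches describe letters in these windows and say nothing of binding.

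The family divided by gene. Dcn, Bgn, Lum, Fmod and Prelp fell in aged cells, by 2.06-fold to 3.45-fold, whereas Ogn rose 51.5-fold, Omd 19.9-fold and Podn 1.91-fold. Aspn lay at nearly the same level in both groups. All 9 genes passed the low-count filter and all 9 had an adjusted p under 0.05 (edgeR quasi-likelihood test, Benjamini-Hochberg adjusted over the 14273 genes tested), 4 higher and 5 lower. Across all tested genes the same test called 86.4%, with 44.7% higher and 41.8% lower, so the count of called members was near the background. Scaling by library size alone raised log2 fold changes by a median of 0.34, and 62.3% of all called genes were then higher instead of 51.7%, while the 9 genes again split into 4 higher and 5 lower. The median log2 fold change of the 9 genes was -1.04, and that of all tested genes was 0.05. The CPM values of aged and young libraries did not overlap for 8 of the 9 genes, where 87.5% of all tested genes showed no overlap.

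**Figure D1:**
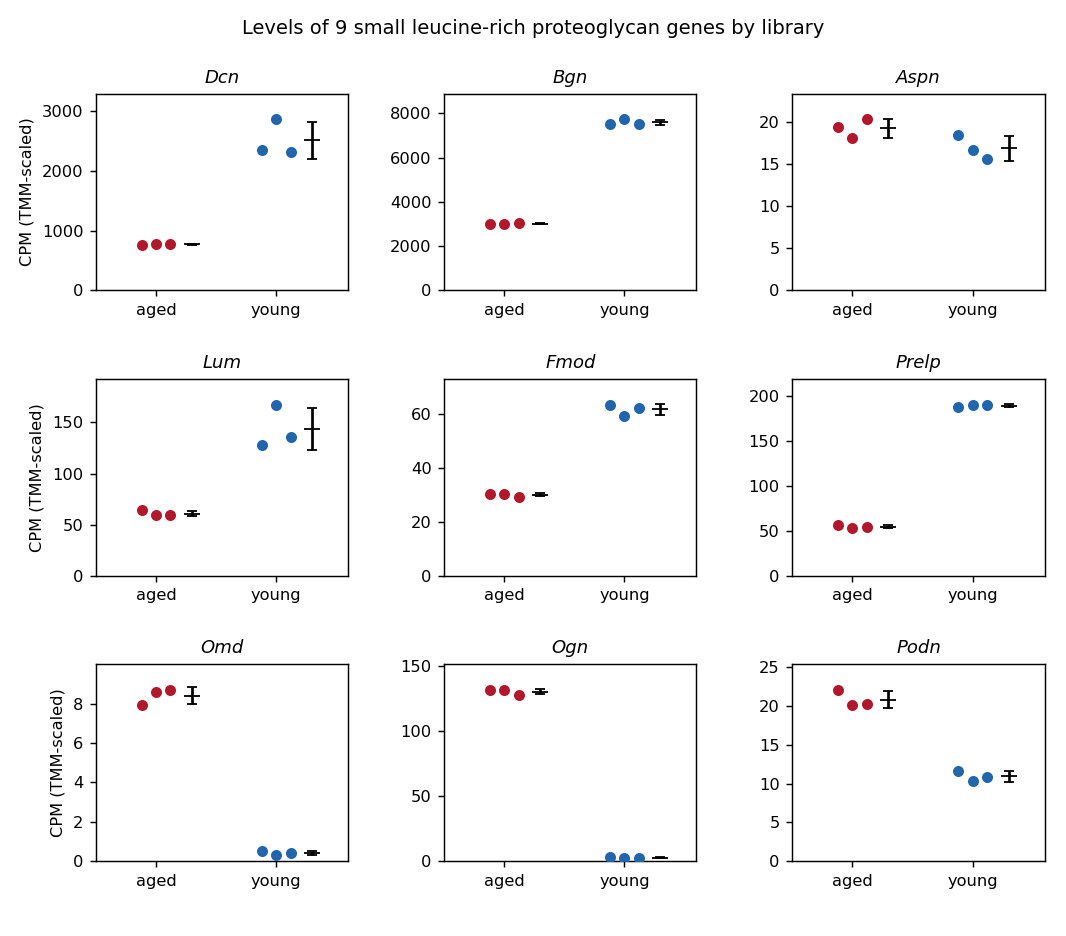
CPM (counts relative to the TMM-scaled library size) of each gene in the 3 aged (red) and 3 young (blue) libraries, each panel on its own linear axis from 0, with the mean ± SD as a black bar beside the points. The aged points lie below the young for Dcn, Bgn, Lum, Fmod and Prelp and above them for Omd, Ogn and Podn, and the groups overlap for Aspn.

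Among the class I genes, decorin (Dcn), which binds type I collagen and TGF-beta, was measured at 763, 769 and 782 CPM (counts relative to the TMM-scaled size of the library) in the aged libraries and at 2349, 2858 and 2306 CPM in the young ones. All aged values lay far below the young, and the highest young value was that of replicate 2. The fall was 3.25-fold (log2 change -1.70 ± 0.057 SE, edgeR adjusted p = 9.3e-15). Biglycan (Bgn), which also binds collagen and acts on Toll-like receptors TLR2 and TLR4 when released, stood at 3003, 2982 and 3023 CPM in aged and 7529, 7727 and 7515 CPM in young libraries. The fall was 2.53-fold, with little spread inside either group (log2 change -1.34 ± 0.022 SE, edgeR adjusted p = 1.0e-18). Asporin (Aspn), which lacks the sulfate chain of its class and restrains TGF-beta in cartilage, had 19.4, 18.1 and 20.4 CPM in aged and 18.5, 16.7 and 15.6 CPM in young libraries. The groups overlapped, since young replicate 1 lay above aged replicate 2. The log2 change of Aspn was 0.19 ± 0.085 SE (95% interval 0.0083 to 0.37, edgeR adjusted p = 0.048), and the call was lost in 8 of 13 alternative settings, among them without aged replicate 1 (edgeR adjusted p = 0.11), without aged replicate 3 (0.18), without young replicate 2 (0.069) and without young replicate 3 (0.23).

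The class II genes parted. Lumican (Lum), which controls fibril spacing in the cornea and other tissues, had 64.0, 59.5 and 59.1 CPM in aged and 128, 167 and 135 CPM in young libraries. Young replicate 2 was again the highest, and no aged library reached the lowest young one. Lum fell 2.36-fold (log2 change -1.24 ± 0.075 SE, edgeR adjusted p = 4.2e-11). Fibromodulin (Fmod), which steers collagen fibril assembly and cross-linking in tendon, had 30.4, 30.4 and 29.4 CPM in aged and 63.6, 59.5 and 62.4 CPM in young libraries. It fell 2.06-fold, with all aged values about equal (log2 change -1.04 ± 0.055 SE, edgeR adjusted p = 6.4e-12). Prelp, which anchors basement membranes to connective tissue, had 56.9, 53.8 and 54.0 CPM in aged and 188, 190 and 191 CPM in young libraries. Its 3.45-fold fall was the largest of the 9 genes (log2 change -1.79 ± 0.042 SE, edgeR adjusted p = 7.4e-17), and 8.88% of tested genes had a lower log2 fold change.

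Osteomodulin (Omd, osteoadherin), a class II protein of mineralized matrix that binds hydroxyapatite, went the other way. It had 7.92, 8.60 and 8.69 CPM in aged and 0.526, 0.317 and 0.420 CPM in young libraries. The young values rest on 19, 12 and 15 counts, against 327, 375 and 339 in aged libraries, and the interval of the rise is wider than for the other 8 genes (19.9-fold, log2 change 4.31 ± 0.20 SE, 95% interval 3.89 to 4.74, edgeR adjusted p = 1.0e-12). Osteoglycin (Ogn, mimecan), a class III protein of bone, vessels and other connective tissue, had 132, 132 and 128 CPM in aged and 2.94, 2.32 and 2.35 CPM in young libraries. These are 5432, 5749 and 5005 counts in aged and 106, 88 and 84 in young libraries, and the groups were far apart. The log2 change of Ogn was 5.69 ± 0.076 SE (95% interval 5.53 to 5.85, edgeR adjusted p = 8.1e-20), and 1.40% of tested genes had a higher one, against 3.54% for Omd. Podocan (Podn), a class V protein that binds collagen and restrains smooth muscle growth, had 22.1, 20.2 and 20.3 CPM in aged and 11.7, 10.3 and 10.8 CPM in young libraries. The rise of 1.91-fold separated the groups completely (log2 change 0.93 ± 0.085 SE, edgeR adjusted p = 1.4e-08).

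**Figure D2:**
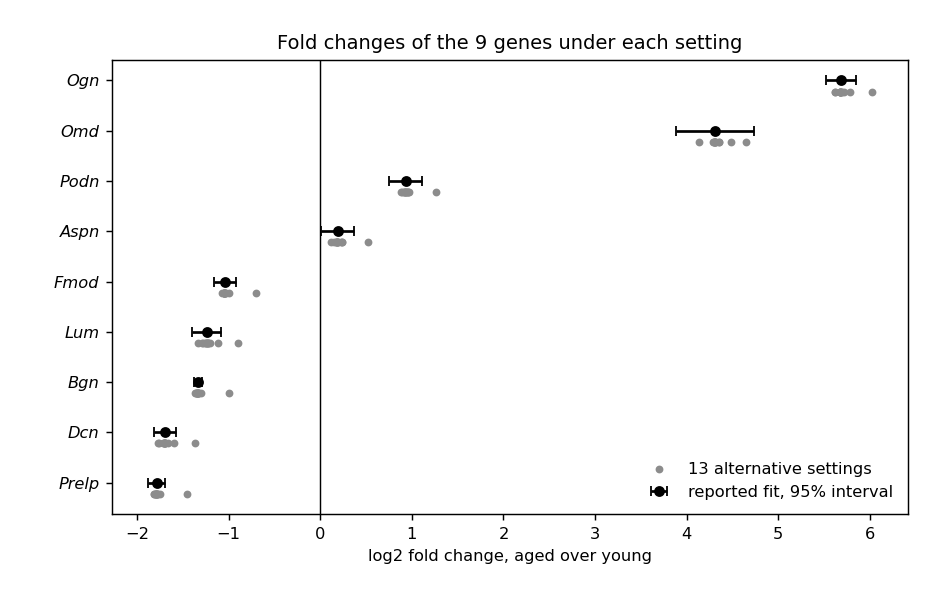
Log2 fold change of each gene, aged over young, with its 95% interval in the reported fit (black) and the values under 13 alternative settings (grey). Every value of Ogn, Omd and Podn lies above 0, every value of Fmod, Lum, Bgn, Dcn and Prelp lies below 0, and the interval of Aspn starts at 0.0083.

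Summed over the 9 genes, the family took 0.460% ± 0.0041 of all counts in aged libraries and 0.936% ± 0.042 in young libraries (SD, n = 3 each). The sum follows Bgn and Dcn, which supplied 91.9% to 92.2% of the family's counts in aged and 95.9% to 96.0% in young libraries. Ogn supplied 3.19% ± 0.066 of the family's counts in aged and 0.0242% ± 0.0039 in young libraries (SD, n = 3 each). Dcn supplied 18.8% ± 0.17 in aged and 23.8% ± 1.87 in young libraries, and Bgn 73.3% ± 0.043 in aged and 72.2% ± 1.87 in young libraries. Counts depend on transcript length, so these shares are compared between groups and not between genes.

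Ratios of 2 genes inside a library do not depend on how libraries are scaled. The count ratio of Bgn to Dcn was 3.93, 3.88 and 3.87 in aged and 3.21, 2.70 and 3.26 in young libraries, so Dcn fell further than Bgn in every comparison of an aged with a young library. The ratio of Fmod to Prelp was 0.534, 0.565 and 0.544 in aged and 0.339, 0.313 and 0.327 in young libraries. The ratio of Ogn to Omd was 16.6, 15.3 and 14.8 in aged and 5.58, 7.33 and 5.60 in young libraries, and that of Ogn to its near neighbour Aspn was 6.78, 7.28 and 6.30 in aged and 0.159, 0.139 and 0.151 in young libraries. These pairs showed no overlap between groups, and neither did the ratios of Dcn to Lum and of Podn to Bgn. The ratio of Lum to Fmod did overlap, at 1.96 to 2.10 in aged and 2.02 to 2.81 in young libraries. How often ratios of other gene pairs separate the groups was not computed. Among single tested genes 87.5% showed no overlap, so the separation of these ratios is not taken as particular to the family. An exact permutation test of 3 against 3 libraries cannot give a two-sided p below 0.10, and none is given.

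Spread inside the groups also differed between genes. The coefficient of variation of Dcn was 1.22% in aged and 12.2% in young libraries, and that of Lum 4.43% in aged and 14.5% in young libraries. The median over 10256 tested genes with a mean of at least 5 CPM was 3.81% in aged and 5.49% in young libraries. Young replicate 2 stood at 1.23 times the mean of the other young libraries for Dcn and at 1.27 times for Lum, and 8.10% and 5.73% of those 10256 genes had as high a ratio. Prelp, by contrast, varied by 0.868% in young libraries, and Bgn by 0.689% in aged ones. The same library was low for Omd, at 0.669 times the mean of the other young libraries. For Ogn it stood at 0.878 times, but level with young replicate 3 (2.32 and 2.35 CPM), while young replicate 1 was higher (2.94 CPM). The coefficient of variation in young libraries was 24.9% for Omd and 13.7% for Ogn, both at low counts. Without young replicate 2 the log2 change was -1.60 for Dcn, -1.12 for Lum, 4.14 for Omd and 5.62 for Ogn. Without young replicate 1 it was 4.48 for Omd and 5.78 for Ogn.

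Most of the 9 genes lie beside other family genes. In RefSeq GRCr8, Ogn, Omd, Aspn and the related gene Ecm2 are neighbours on chromosome 17, Dcn and Lum on chromosome 7 and Optc, Prelp and Fmod on chromosome 13, while Bgn lies on the X chromosome and Podn on chromosome 5. Along chromosome 17 the log2 changes in gene order were 5.69 for Ogn, 4.31 for Omd, 0.19 for Aspn and 0.73 ± 0.53 SE for Ecm2, which was not called (edgeR adjusted p = 0.21) at 0.380 ± 0.18 CPM in aged and 0.229 ± 0.12 CPM in young cells (SD, n = 3 each). Outside this block, Nol8, a nucleolar protein gene, rose 25.7-fold and Iars1, the isoleucyl-tRNA synthetase gene, rose 2.30-fold on the Ogn side, and Ippk, an inositol phosphate kinase gene, rose 1.29-fold on the Ecm2 side. Cenpp, a centromere protein gene whose span holds Ogn, Omd and Aspn, fell 6.82-fold, to 45, 22 and 18 counts in aged libraries, against 197, 185 and 134 in young ones. The strand setting of the counting is not given in the sources used here, so reads of overlapping exons of these genes cannot be told apart.

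On chromosome 7 Dcn and Lum fell together, and Kera and Epyc, the next family genes, had at most 1 count in any library. The nearest tested genes outside did not share that direction throughout, since Btg1, an antiproliferative gene, fell 1.56-fold and Atp2b1, a calcium pump gene, rose 1.91-fold. On chromosome 13 Prelp and Fmod fell while Optc, which encodes opticin of the eye's vitreous, had 49, 55 and 68 counts in aged and 16, 18 and 12 in young libraries and rose 3.31-fold (edgeR adjusted p = 1.9e-04). Of the tested genes outside, Btg2, an antiproliferative gene on the Fmod side, fell 2.69-fold, and Atp2b4, a calcium pump gene on the Optc side, was not called (log2 change -0.04 ± 0.32 SE, edgeR adjusted p = 0.90). Beside Bgn, Haus7, a spindle protein gene, fell 4.74-fold and Slc6a8, the creatine transporter gene, fell 1.25-fold. Beside Podn, the lipid transfer gene Scp2 fell 2.99-fold and Cpt2, a mitochondrial fatty acid oxidation gene, fell 1.16-fold. Noncoding genes overlap Dcn, Fmod and Prelp, each with at most 29 counts in any library.

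**Figure D3:**
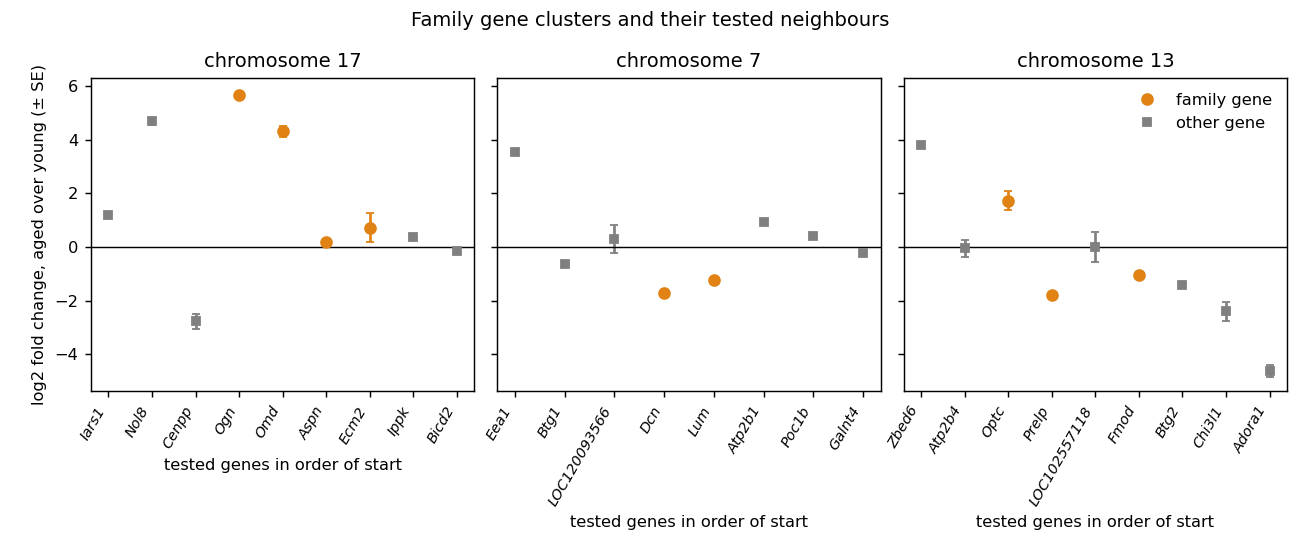
Log2 fold change (aged over young, ± SE) of the family genes (orange circles) and the tested genes around them (grey squares), in order of gene start in RefSeq GRCr8 and not to scale, for 3 chromosomes. Ogn and Omd stand at 5.69 and 4.31 while Aspn next to them is at 0.19, and Dcn with Lum and Prelp with Fmod lie below 0.

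The promoter windows of Ogn, Omd and Aspn were low in G and C, at 46.0%, 37.7% and 39.0%, against a median of 52.3% over 27457 windows. The 11183 tested genes with a window were divided by its GC content into 5 groups of about equal size. Group 1, up to 52.3% GC, had a median log2 fold change of 0.41, and in aged cells 50.9% of its genes rose and 33.6% fell. In groups 2 and 3 the median was -0.12 each, with 40.8% and 40.4% of genes higher. Ogn, Omd and Aspn belonged to group 1, and so did Lum, at 50.7% GC, which fell. Fmod, at 52.7% GC, belonged to group 2 and fell, and Podn, at 76.3% GC, belonged to group 5 (median 0.10) and rose. The part of base composition in the rise of Ogn and Omd was not tested.

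Other genes of the family were fewer and mostly low. Of 9 further family genes listed, Chad had no row in the table analysed here, 6 passed the filter, 3 rose and 2 fell, and their median log2 fold change was 0.69. Tsukushi (Tsku), a secreted inhibitor of BMP and Wnt signals, was the most precisely measured, with 91.2 ± 3.26 CPM in aged and 57.9 ± 4.94 CPM in young cells (SD, n = 3 each; 1.58-fold higher, edgeR adjusted p = 9.7e-09). Podnl1, the closest relative of Podn, moved against it, at 36.8 ± 2.61 CPM in aged and 50.1 ± 2.62 CPM in young cells (SD, n = 3 each; 1.36-fold lower, edgeR adjusted p = 5.0e-06). Under scaling by library size alone 1 of the listed genes was called lower in place of 2. That scaling raised log2 fold changes by a median of 0.34, and the log2 change of Podnl1 in the reported fit was -0.45 ± 0.064 SE. How far Podnl1 fell, and possibly whether it is called lower, therefore depends on the scaling. Chadl, a chondroadherin-like gene, had 28, 47 and 29 counts in aged and 1, 2 and 8 in young libraries, and Nyx, the nyctalopin gene of the retina, had 16, 14 and 10 in aged and 32, 26 and 26 in young ones.

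Genes that build the sulfate chains did not share a direction. Chondroitin and dermatan sulfate synthesis was covered by 24 tested genes, and 9 rose, 15 fell and the median log2 fold change was -0.29. Under scaling by library size alone the split was 12 higher and 11 lower and the median 0.05. Chst11, a chondroitin 4-O-sulfotransferase gene, fell 3.40-fold and Xylt2, whose enzyme starts the chain on the core protein, fell 3.43-fold. In the opposite direction, Csgalnact2, a chondroitin initiation enzyme gene, rose by 2.26 on the log2 scale, Papss2, which makes the sulfate donor, rose 3.14-fold, and Dse, the epimerase gene that turns chondroitin into dermatan sulfate, rose 2.94-fold (edgeR adjusted p of 8.5e-14 or less for these 5 genes). The paralogs of Xylt2 and Csgalnact2 moved against them. Xylt1 rose 1.19-fold (edgeR adjusted p = 0.013) and Csgalnact1 fell 2.20-fold (edgeR adjusted p = 4.2e-12). Of 8 genes of keratan sulfate synthesis, 4 rose and 4 fell, with a median of -0.21 that became 0.13 under scaling by library size alone. B4galt1, a galactosyltransferase gene, fell 1.74-fold, the sulfotransferase genes Chst2 and Chst1 fell 1.64-fold and 2.59-fold, and B4galt4 fell 1.49-fold. Fut8, the core fucosyltransferase gene, rose 1.54-fold, B3gnt2 rose 1.12-fold and Chst5 rose 3.06-fold. B3gnt7 rose 10.5-fold, with 60, 73 and 61 counts in aged and 9, 3 and 4 in young libraries.

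Collagens bound by the family were mostly lower. Among 12 tested genes 2 rose and 10 fell, and the list median was -0.88 on the log2 scale. Col5a1, the type V chain that starts fibrils, fell to 685 ± 3.58 CPM in aged cells, against 2736 ± 69.9 CPM in young cells (SD, n = 3 each). Col14a1, a collagen on fibril surfaces, fell 3.18-fold and Col1a1, the main bone collagen, fell 1.79-fold. Col11a1, a cartilage fibril chain, rose 2.74-fold and Col5a3 rose 1.29-fold. Genes listed as proteases that cut members of the family were mostly lower as well. Of 14 tested, 11 were lower and 3 higher, with a median of -1.60. This list includes Pcolce, which encodes an enhancer of procollagen proteinases and not a protease, and which fell 1.67-fold. Mmp9, Adamts1 and Mmp2 fell 20.8-fold, 3.91-fold and 2.84-fold, whereas Tll1, a BMP1-like procollagen proteinase gene, rose 1.55-fold, the aggrecanase gene Adamts4 rose 1.94-fold and the granzyme B gene Gzmb rose 16.8-fold, to 4.34 ± 0.483 CPM in aged cells, against 0.257 ± 0.281 CPM in young cells (SD, n = 3 each).

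Partners that the family binds were split, with 9 of 19 tested growth factor and receptor genes higher, 9 lower and 1 not called, and a median of 0.13. The Toll-like receptor genes for released biglycan moved in opposite directions. Tlr2 fell 19.7-fold, to 6.02 ± 0.379 CPM in aged cells, against 118 ± 2.35 CPM in young cells, and Tlr4 rose 17.9-fold, to 14.4 ± 0.378 CPM in aged cells, against 0.796 ± 0.293 CPM in young cells (SD, n = 3 each). Among the TGF-beta ligands that decorin, biglycan and fibromodulin bind, Tgfb1 fell 3.23-fold, Tgfb2 rose 9.59-fold and Tgfb3 rose 2.49-fold. Lrp1, an endocytic receptor gene for decorin, fell 3.04-fold. Of 18 tested genes of other proteoglycans, a list with the link protein gene Hapln3, 10 fell and 8 rose, with a median of -0.82. The perlecan gene Hspg2 fell 3.59-fold, the syndecan gene Sdc4 fell 3.19-fold and the lubricin gene Prg4 had 0.126 ± 0.113 CPM in aged and 308 ± 10.5 CPM in young cells (SD, n = 3 each). Sdc2 rose 2.16-fold, the endocan gene Esm1 rose 1.59-fold and the serglycin gene Srgn rose 2.62-fold.

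**Figure D4:**
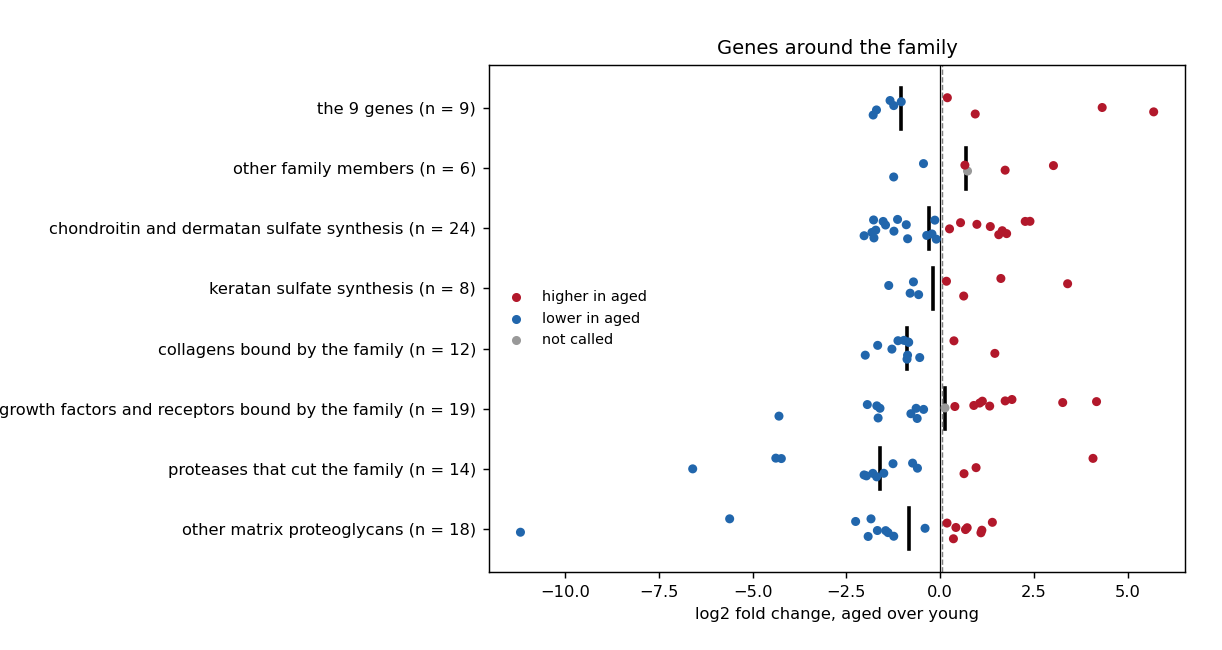
Log2 fold change (aged over young) of every tested gene in each list, 1 point per gene, coloured by whether it was called higher or lower in aged cells, with the list median as a black bar and the median of all tested genes, 0.05, as a dashed line. The 9 genes spread from -1.79 to 5.69, and the collagen and protease lists have medians of -0.88 and -1.60.

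Markers of neighbouring lineages moved with the groups as well. Adipocyte markers took 0.00461% to 0.00503% of counts in aged and 0.0584% to 0.0628% in young libraries, and 6 of 6 tested fell. Osteoblast markers took 0.196% to 0.200% in aged and 0.0173% to 0.0219% in young libraries, and of 5 tested 2 rose, 1 fell and 2 were not called, against 4 higher and 1 lower under scaling by library size alone. The osteocalcin gene Bglap had at most 6 counts in any library, and the sum follows Spp1, which encodes osteopontin and rose 9.06-fold. Runx2 rose 2.78-fold, whereas Ibsp fell 9.23-fold (0, 10 and 1 counts in aged and 41, 29 and 22 in young libraries). Sp7 and Alpl were not called (edgeR adjusted p = 0.11 and 0.87). Tendon cell markers took 0.0198% to 0.0200% in aged and 0.0572% to 0.0602% in young libraries, with 3 of 5 tested higher and 2 lower. That sum follows Egr1, an early-response factor gene that other cells also express, which fell 4.09-fold (5926 to 6631 counts in aged and 22084 to 24331 in young libraries). The tendon factor Scx fell 4.19-fold, whereas the tendon factor Mkx rose (224, 202 and 182 counts in aged and 1, 2 and 4 in young libraries), the matrix genes Comp and Thbs4 rose 21.4-fold and 2.07-fold, and Tnmd had at most 5 counts. Chondrocyte markers took 0.000432% to 0.000592% in aged and 0.000398% to 0.000476% in young libraries, with 1 of 4 tested higher, 2 lower and Cnmd at 0 in every library. Stromal markers took 0.429% to 0.433% in aged and 0.930% to 0.979% in young libraries, with 2 of 10 tested higher, 6 lower and 2 not called. That sum follows Thy1 and the chemokine gene Cxcl12, which both fell. Under scaling by library size alone the stromal list turned to 5 higher and 4 lower, and its median to 0.09, against -0.25. Macrophage and blood cell markers took 0.00485% to 0.00497% in aged and 0.00830% to 0.00853% in young libraries, with 1 of 4 tested higher and 3 lower. Csf1r, the macrophage colony-stimulating factor receptor gene, rose 67.5-fold (925, 935 and 837 counts in aged and 8, 8 and 19 in young libraries), and the lysozyme gene Lyz2 fell 57.8-fold (4, 15 and 3 counts in aged and 372, 347 and 422 in young libraries). Cd14, the lipopolysaccharide co-receptor gene, had 842 to 889 counts in aged and 2910 to 3029 in young libraries, and Cd68, a lysosomal macrophage gene, 20 to 39 in aged and 68 to 130 in young libraries. Among the others Ptprc, Tyrobp and C1qa had at most 3 counts, Adgre1 at most 7 and Itgam at most 10. Smooth muscle markers took 0.248% to 0.257% in aged and 0.185% to 0.194% in young libraries, with 2 of 5 tested higher and 3 lower, which turned to 3 higher and 2 lower under scaling by library size alone. Endothelial markers summed to at most 29 counts in any library, and Tek was the 1 gene of that list that could be tested. The part of cell makeup in the changes of the 9 genes was not tested.

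Over the 6 libraries, the genes outside the family with the profile most like that of Ogn were Npat, a histone gene transcription factor, Tanc2 and Bms1, each with a Pearson r of log2(CPM + 1) above 0.99. Npat had 51.0 ± 0.053 CPM in aged and 1.73 ± 0.24 CPM in young cells (SD, n = 3 each). The genes most like Prelp were Fads1, a fatty acid desaturase gene, Sfrp2, a Wnt antagonist gene, and Septin9, likewise above 0.99. Of 10015 candidate genes with a mean of at least 5 CPM, 2036 had an r above 0.99 with Ogn and 2726 with Prelp. The 6 values form 2 separate groups, so r serves only as a description here.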

How the data were processed

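The deposited values are raw counts of reads per gene symbol, which the authors gave as a single table with 1 column per library and no normalization. Reads went through fastp, HISAT2 and HTSeq, of which no versions are listed, per the submitters' processing notes. Genome build, annotation and strand setting: not given in the sources used here. TRIzol extraction and the VAHTS Universal V6 library kit are stated per the labels' protocols.

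Genes were kept by filterByExpr (minimum count 10), scaled by TMM and tested, aged against young, with edgeR 4.0.16 in R 4.3.3 (quasi-likelihood F test, group as the only term, Benjamini-Hochberg adjusted p under 0.05). CPM are scaled by TMM factors. SE is the fitted log2 change divided by the square root of F.

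The 9 genes and the lists around them were chosen with earlier results of these data known. Named list genes are the 3 called genes with the smallest p and up to 3 called against the list's main direction. In lists with as many higher as lower genes, the lower ones were taken as those against it. For family clusters the immediate tested neighbours are named. Other neighbours, Tlr4, Tgfb3, Pcolce, Hapln3, Xylt1, Csgalnact1, further family genes and the remaining keratan sulfate genes were chosen after their values were seen. So were single markers, the promoter motifs and the GC groups. RefSeq tables of GRCr8 matched 19087 of 21026 symbols and all 9 genes. They served for gene order, gene overlap and promoter windows only.

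Alternatives were other scalings and filters, DESeq2 1.42.0, limma-voom (limma 3.58.1), a replicate block and leaving out each library. Libraries of 1 group differed beyond counting noise (chi-square per degree of freedom 3.13 to 11.2), so none was counted as a duplicate. A count of 0 allows up to 3 counts, 0.0688 to 0.0840 CPM depending on the library, for counting error only.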

Additional observations from a re-analysis of the deposited data

How the results depend on the processing

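Of the 9 genes, Dcn, Bgn, Lum, Fmod, Prelp, Ogn, Omd and Podn kept their direction and their call in all 13 alternatives. Aspn kept its direction but lost its call with DESeq2 size factors (log2 change 0.18, edgeR adjusted p = 0.057), with no low-count filter (0.17, edgeR adjusted p = 0.075), in DESeq2 (0.18, DESeq2 adjusted p = 0.082) and with the replicate block (0.19, edgeR adjusted p = 0.059). Leaving out 1 library at a time gave 0.12 to 0.24 for Aspn. The cause was not tested.

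Scaling by library size alone raised all log2 fold changes by a median of 0.34, moved the share of higher genes among all called from 51.7% to 62.3%, and gave the values nearest to or farthest above 0, such as 6.02 for Ogn, 0.52 for Aspn and -0.70 for Fmod. The family's share of counts became 0.410% in aged and 1.05% in young libraries over the TMM-scaled library size, and 0.481% in aged libraries without mitochondria-encoded genes.

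Among the marker lists, chondrocyte genes called higher numbered 2 in place of 1 with no low-count filter. The same held without aged replicate 3 or young replicate 1, 2 or 3. Smooth muscle genes called higher numbered 1 in place of 2 without aged replicate 1 or young replicate 2. With a filter of 1 CPM in 3 libraries, osteoblast genes called lower numbered 0 in place of 1, and chondrocyte genes 1 in place of 2. Under that filter, stromal genes called higher numbered 1 in place of 2, and endothelial genes 0 in place of 1.

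Libraries of the same replicate number did not visibly deviate together (r = -0.020, 0.0085 and 0.032 across genes, against -0.040 to 0.033 for different numbers). These values cannot show whether libraries of the same number share a day or an animal, which the labels do not state. The replicate block called 8 of the 9 genes, 3 higher and 5 lower, and 12162 genes in all. The lowest counts, in the young libraries for Omd, limit how precisely its rise is known.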
